A study of Rattus norvegicus with 18 samples.

Results

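The genes described here encode voltage-gated calcium channel subunits, voltage-gated sodium channel subunits and HCN channels in the rat brain. The members are the genes found by a rule on symbols: every probe set whose only gene symbol in the platform annotation begins with Cacna, Cacnb or Cacng, is an Scn number followed by a or b, or is Hcn followed by a number, with Scn4b left out. The rule found 54 probe sets for 38 of the 14217 genes that the array names, and the probe set with the highest mean was used for each gene. Of the 38 genes, 23 were bright enough to test and 15 were too dim. Signals of other genes of these families were not analysed here. The rats were male Sprague-Dawley animals of 260 to 300 g that carried EEG and EMG electrodes and were housed singly. Rats of the control state remained in their home cages. Deprived rats were kept from paradoxical sleep, the rapid eye movement state, for 78 h by the flowerpot method, in which a rat stands on a small platform over water and wakes when its muscles go slack. Recovery rats spent 72 h in this way and were then allowed 6 h of sleep. Platform exposure and sleep loss cannot be told apart, since control rats were not on platforms. Each state held 12 rats in 2 sets of 6, and RNA from the right neocortex and right hippocampal formation was pooled over the 6 rats of a set. Each of the 6 groups of structure and state therefore had n = 2 pools, and both structures of a pool came from the same rats.

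Voltage-gated calcium channels open when the membrane depolarizes and let in the calcium that triggers transmitter release, dendritic spikes and activity-dependent transcription. Their pore is the alpha1 subunit, and the alpha2delta and beta subunits carry it to the membrane and tune its gating. Several gamma subunits are instead TARPs, transmembrane proteins that traffic AMPA-type glutamate receptors and set their kinetics. Voltage-gated sodium channels carry the upstroke of the action potential, with a pore-forming alpha subunit and immunoglobulin-fold beta subunits that also act in cell adhesion. HCN channels open on hyperpolarization and carry the pacemaker current of rhythmically firing neurons. T-type calcium channels and HCN channels together support the burst firing seen in sleep rhythms of the thalamus and cortex.

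The deposited values were array signals made with the MAS5 algorithm, and the number of arrays limits their precision. All 18 arrays had been scaled to a like mean. A set 1 pool was hybridised on 2 arrays and a set 2 pool on 1, and the 23 measured genes differed between the 2 arrays of a pool by a median of 0.17 log2 units. This figure ran from 0.060 for Cacnb2 to 0.84 for Cacng8, the least repeatable of them. A probe set was tested where its mean log2 signal was above 4.30, a signal of 19.7, which kept 18625 of 31042 probe sets. Levels of different probe sets are not comparable, so genes are compared only with themselves. Markers of hippocampal neurons matched the labelled structures, and those of neocortical neurons did so in part. In the hippocampal formation 7 of 7 measured genes of hippocampal principal neurons were higher, against 9.4% of all probe sets. Of 9 genes of neocortical neurons 4 were lower there, against 10.5% of all probe sets, and 1 was higher.

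**Figure D1:**
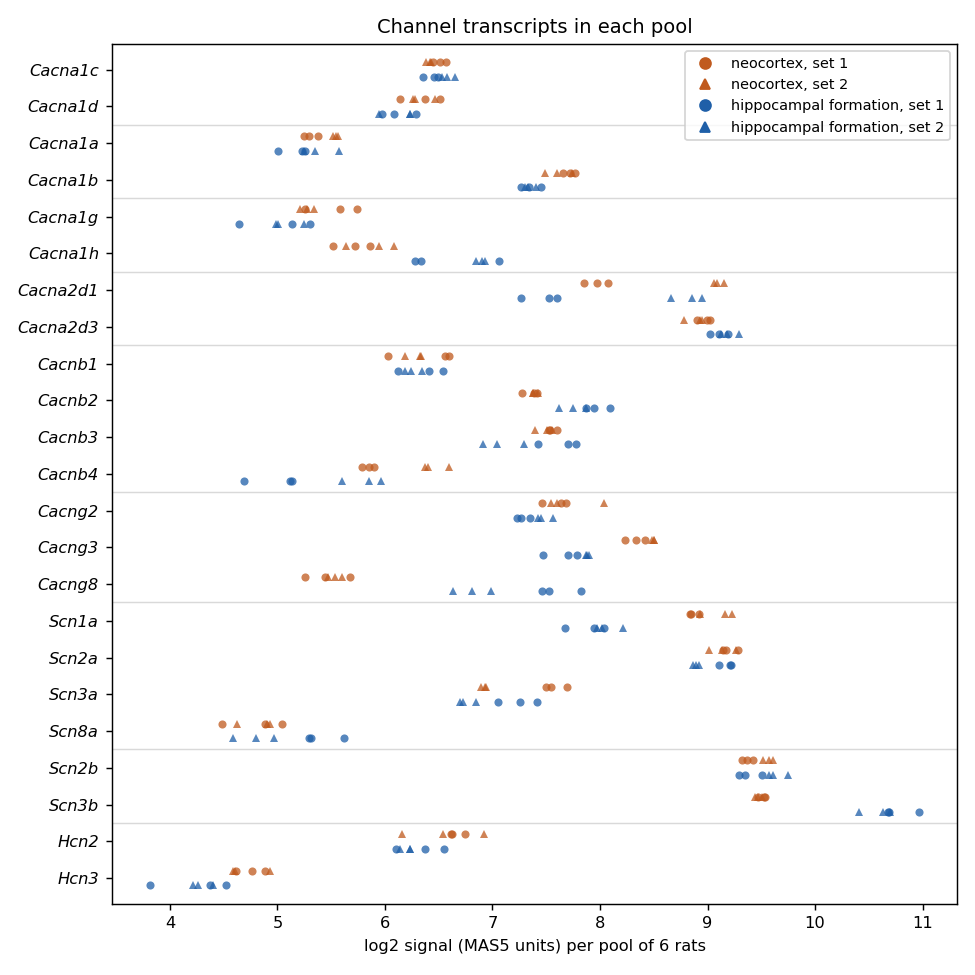
Log2 signal of the 23 measured channel genes in each of the 12 pools, ordered by subfamily, with circles for set 1 and triangles for set 2. Each point is 1 pool of 6 rats, and positions should be compared within a row only. Cacng8, Scn3b and Cacna1h lie to the right in the hippocampal formation in every pool, Scn1a and Cacng3 to the left, and Cacna2d1 splits by set in both structures.

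Channel transcripts differed between the 2 structures. Within the same rats, 13 of 23 genes differed between the hippocampal formation and the neocortex, 5 higher and 8 lower in the hippocampal formation. Over all probe sets tested, 19.9% differed, 9.4% higher and 10.5% lower. The median difference of the 23 genes was -0.16 log2 units, against -0.015 over all probe sets. The test was limma on the 6 within-pool differences, and an adjusted p (Benjamini-Hochberg) under 0.05 counted as a call. With the set of rats as a block, 17 of the 23 were called, all 13 among them, and 43% of all probe sets. In 8 of the 23 genes, 4 in each direction, no hippocampal pool overlapped any neocortical pool, which held for 13.5% of all probe sets. Potassium channel genes, the other large group of voltage-gated channels, were called in 26 of 46, 8 higher and 18 lower. In whole tissue, fewer cells of a type and less RNA per cell cannot be told apart.

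**Figure D2:**
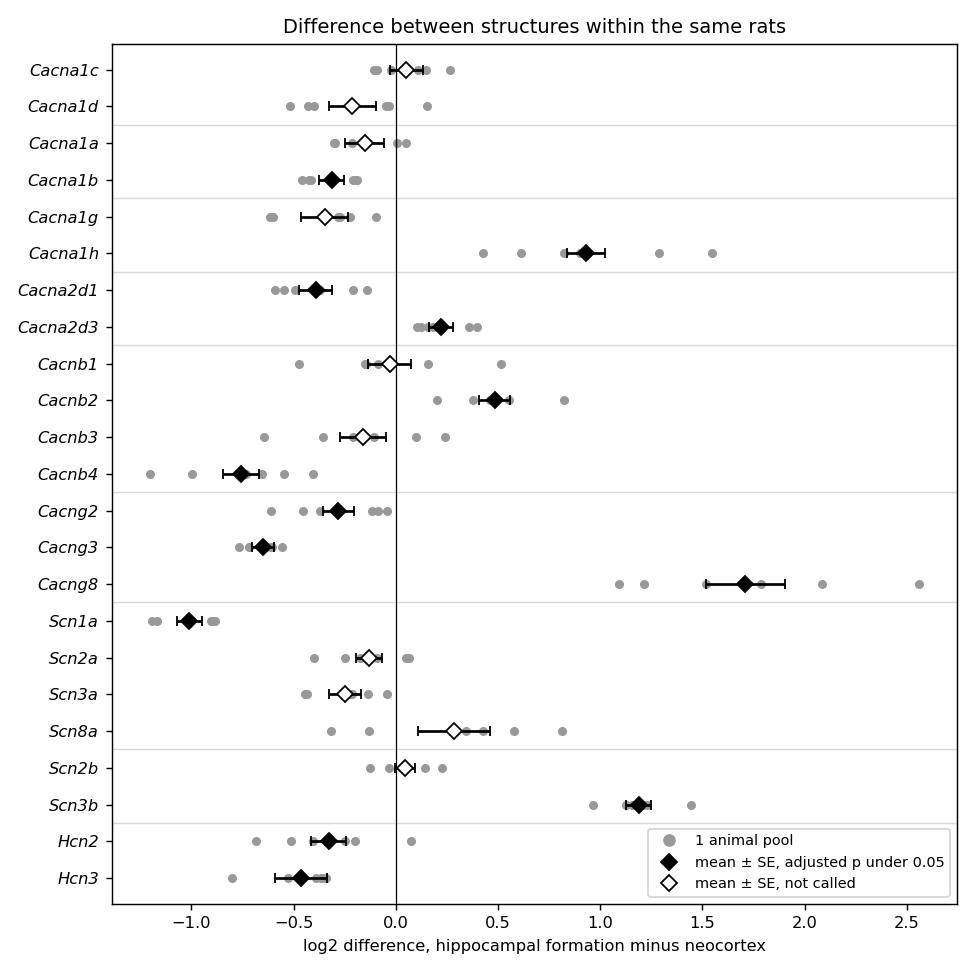
Log2 difference between hippocampal formation and neocortex for the 23 measured channel genes. Grey points are the 6 animal pools, diamonds are the mean with its standard error, and filled diamonds mark the 13 genes with an adjusted p under 0.05. The means run from -1.01 for Scn1a to 1.71 for Cacng8.

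Cell type markers also differed between the structures, and their part in the channel differences was not tested. The counts of marker genes stand against 9.4% of all probe sets called higher and 10.5% called lower. Sums over a list are weighted towards its brightest probe sets, such as Mef2c for neocortical neurons, and include dim genes such as Dsp. The summed signal of 8 genes of hippocampal principal neurons was 544 to 630 in the neocortical pools and 1299 to 1608 in the hippocampal pools. That of 9 neocortical neuron genes was 4526 to 4847 and 2354 to 3271. The hippocampal pools of set 2 lay at 3104 to 3271 on the neocortical list and those of set 1 at 2354 to 2372. In control hippocampal pools, Etv1, Bcl11b and Mef2c read 459, 480 and 631 in set 1 and 799, 726 and 967 in set 2. Cux2, Lamp5 and Foxp2 were also higher in set 2, at 43.7, 304 and 12.2 in set 1 and 60.7, 331 and 33.6 in set 2. Rorb, Tle4 and Fezf2 were lower in set 2. Etv1 showed a like gap in neocortical controls, at 451 and 804. Bcl11b was higher in the hippocampal formation than in the neocortex of the same rats. All 7 measured striatal genes were lower in the hippocampal formation, with sums of 1377 to 1653 in the neocortex and 417 to 585 in the hippocampal formation. Of 7 GABA interneuron genes 4 were lower, including Pvalb by -0.62 log2 units and Vip by -1.19, with sums of 4374 to 4749 and 3437 to 3776. The pools of the structures overlapped for Gad1, Gad2 and Sst. Gad2 read 71.7 to 135.5 in the neocortex and 85.5 to 131.6 in the hippocampal formation, and Gad1 1310 to 1505 and 1219 to 1409. Of 11 pan-neuronal genes 1 was higher and none lower, with sums of 14185 to 16267 and 14768 to 16423. Among glial and vascular lists, 2 of 7 astrocyte genes were called higher, with sums of 7700 to 9051 in the neocortex and 9437 to 10323 in the hippocampal formation, and 2 of 5 endothelial genes lower, with sums of 595 to 666 and 522 to 564. The summed signals of the structures did not overlap for 6 of the 14 marker lists.

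Among the pore-forming calcium channel subunits, the T-type gene Cacna1h was the one that differed most. Its signal had a lowest, median and highest value of 45.7, 55.4 and 67.8 in the 6 neocortical pools and 77.7, 117.5 and 133.4 in the 6 hippocampal pools. The ranges did not overlap, and all 6 hippocampal pools exceeded the neocortex of the same rats. The difference was 0.93 log2 units (SE 0.0933, limma adjusted p = 0.000796), a 1.91-fold higher level. It was widest in the control rats, at 1.55 in set 1 and 1.29 in set 2, and 0.42 to 0.90 in the other 4 animal pools. Averaged with the gene's other, dim probe set, the difference was 0.15 log2 units (limma adjusted p = 0.607). Cacna1g, the other measured T-type gene, ran opposite, with 36.9, 39.7 and 53.4 in the neocortex and 24.9, 33.7 and 39.3 in the hippocampal formation. Its difference of -0.35 log2 units missed the threshold (SE 0.116, limma adjusted p = 0.0767) and was called with the set as a block (adjusted p = 0.0184), although all 6 animal pools lay below 0.

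The N-type gene Cacna1b, whose channel drives transmitter release at many synapses, was lower in the hippocampal formation. Its signal was 179.6, 206.6 and 218.0 in the neocortex and 153.6, 161.6 and 175.1 in the hippocampal formation, with no overlap. The difference was -0.31 log2 units (SE 0.0623, limma adjusted p = 0.0140), and leaving out any 1 of 3 of the animal pools ended the call, at an adjusted p of up to 0.0740. A second probe set of Cacna1b gave -0.68 log2 units (limma adjusted p = 0.0129). Cacna1a, the P/Q-type gene, was 37.9, 43.8 and 47.4 in the neocortex and 32.0, 38.0 and 47.5 in the hippocampal formation. These ranges overlapped and the difference of -0.15 log2 units was not called (95% interval -0.38 to 0.071), and 2 of its other probe sets, those that passed the filter on dim signals, differed by 0.10 and 0.055. The L-type genes Cacna1c and Cacna1d, whose channels couple depolarization to gene expression, were not called either. Cacna1c differed by 0.051 log2 units (95% interval -0.14 to 0.24) and Cacna1d by -0.21 (95% interval -0.49 to 0.060).

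The auxiliary subunits split within each subfamily. Cacna2d1, an alpha2delta subunit and target of gabapentin, was lower in the hippocampal formation, with a difference of -0.39 log2 units (SE 0.0796, limma adjusted p = 0.0154). Its ranges over all pools overlapped, since its level differed between set 1 and set 2. In set 1 the neocortical pools were 251.2 in control, 231.5 in deprived and 268.8 in recovery rats, and the hippocampal pools 194.4, 153.4 and 184.0. In set 2 they were 568.2, 543.7 and 535.4 in the neocortex and 403.7, 493.5 and 462.5 in the hippocampal formation. Within each set the structures did not overlap. Without the set 1 pool of the deprived or of the recovery rats, its adjusted p was 0.0706 and 0.0727. Cacna2d3 was higher in the hippocampal formation, with 440.2, 491.4 and 521.8 in the neocortex and 521.7, 570.4 and 627.0 in the hippocampal formation. This difference of 0.22 log2 units (SE 0.0596, limma adjusted p = 0.0411) was positive in 6 of 6 animal pools, and the call was lost without any one of them.

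Of the 4 beta subunits, which bind the alpha1 subunit inside the cell and bring it to the membrane, Cacnb2 was higher and Cacnb4 lower in the hippocampal formation. Cacnb2 measured 154.6, 166.6 and 171.6 in the neocortex and 197.1, 234.0 and 273.4 in the hippocampal formation, without overlap. Its difference was 0.48 log2 units (SE 0.0760, limma adjusted p = 0.00563), and 2 further probe sets gave 0.50 and 0.44 (adjusted p = 0.0124 and 0.105). Cacnb4 measured 55.2, 71.1 and 97.0 in the neocortex and 25.9, 41.8 and 62.5 in the hippocampal formation. All 6 animal pools were lower in the hippocampal formation, by -0.76 log2 units on average (SE 0.0879, limma adjusted p = 0.00151), a 1.69-fold difference. Within each set the structures did not overlap: 55.2 to 59.5 against 25.9 to 35.1 in set 1, and 82.7 to 97.0 against 48.6 to 62.5 in set 2. Cacnb3 was not called at -0.16 log2 units (limma adjusted p = 0.330), with 0.078 in set 1 and -0.40 in set 2. It passed with the set as a block (adjusted p = 0.0389). Cacnb1 differed by -0.030 log2 units (95% interval -0.28 to 0.22), and its other probe set by 0.078.

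The 3 measured gamma subunits are all TARPs of AMPA receptors, and they showed both the largest difference and a split in direction. Because they go in opposite directions, the 250 bases before each gene's start are printed for comparison from RefSeq (GRCr8), read 5′ to 3′ on the gene's own strand. Capitals mark matches to the motifs searched.
Cacng8: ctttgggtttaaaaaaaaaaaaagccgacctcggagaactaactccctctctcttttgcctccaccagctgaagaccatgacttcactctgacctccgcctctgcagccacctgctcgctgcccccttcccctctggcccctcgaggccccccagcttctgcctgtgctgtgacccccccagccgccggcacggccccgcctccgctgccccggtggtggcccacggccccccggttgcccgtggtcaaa
Cacng3: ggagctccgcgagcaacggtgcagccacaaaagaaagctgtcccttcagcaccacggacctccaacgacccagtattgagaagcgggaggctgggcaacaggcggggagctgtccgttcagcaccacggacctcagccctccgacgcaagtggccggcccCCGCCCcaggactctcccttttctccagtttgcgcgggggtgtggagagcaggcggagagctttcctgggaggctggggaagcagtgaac
Cacng2: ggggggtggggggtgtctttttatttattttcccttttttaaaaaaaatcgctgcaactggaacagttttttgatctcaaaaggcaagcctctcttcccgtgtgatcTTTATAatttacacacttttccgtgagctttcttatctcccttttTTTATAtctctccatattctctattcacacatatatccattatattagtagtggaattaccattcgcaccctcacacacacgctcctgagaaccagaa
The Cacng8 window is chr1:74691004-74691253 on the minus strand, that of Cacng3 chr1:186632312-186632561 on the plus strand and that of Cacng2 chr7:111577758-111578007 on the minus strand. The motifs, read on both strands, were a cyclic AMP response element (TGACGTCA, in 1.59% of all 33469 promoter windows), a GC box (GGGCGG, 30.5%), a TATA box (TATAAA, 12.9%), an E-box (CACGTG, 5.59%), an Egr site (GCGNGGGCG, 4.29%) and the glucocorticoid response element (0.373%). The Egr letters can overlap a GC box. Cacng3 held 1 GC box starting 90 bases before the start, and Cacng2 held 2 TATA boxes starting 143 and 98 bases before it. Cacng8 held none of the 6. G and C made up 64.8% of the Cacng8 and Cacng3 windows and 38.4% of that of Cacng2, against a median of 51.2% over all windows. Promoter entries matched 26 of the 38 genes, of which 13 held a GC box, 7 an Egr site and 2 a TATA box, and none held the other 3. These matches are descriptions of the sequence only.

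Cacng8, the TARP of hippocampal AMPA receptors, measured 38.3, 45.4 and 51.0 in the neocortex and 99.0, 151.6 and 226.1 in the hippocampal formation. The lowest hippocampal pool stood well above the highest neocortical one. The difference was 1.71 log2 units (SE 0.193, limma adjusted p = 0.00132), a 3.27-fold higher level and the largest of the 23 genes. It was 2.15 log2 units over the set 1 rats and 1.27 over the set 2 rats. The hippocampal pools of set 1 read 226.1, 176.1 and 184.4 in control, deprived and recovery rats and those of set 2 read 99.0, 112.2 and 127.0. Cacng3, a TARP of cortical neurons, was lower in the hippocampal formation, at 176.8, 226.7 and 237.8 against 301.2, 350.2 and 363.4. Its difference of -0.65 log2 units (SE 0.0544, limma adjusted p = 0.000392) varied little, between -0.77 and -0.56 over the 6 animal pools. Cacng2, or stargazin, the founding TARP, was lower by a smaller margin, at 149.8, 167.2 and 188.7 against 176.4, 196.6 and 262.7. The ranges overlapped, the difference was -0.28 log2 units (SE 0.0755, limma adjusted p = 0.0409), and the call was lost without any one of 5 of the 6 animal pools. Its second probe set gave -0.31 log2 units (limma adjusted p = 0.168).

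The sodium channel genes held 2 of the 3 differences over 1 log2 unit. Scn1a, whose channel predominates at the axon initial segment of fast-spiking interneurons, measured 458.7, 485.5 and 601.5 in the neocortex and 204.6, 255.2 and 297.3 in the hippocampal formation. Every hippocampal pool lay below every neocortical one. The difference was -1.01 log2 units (SE 0.0609, limma adjusted p = 0.000127), a 2.01-fold lower level, and lay between -1.19 and -0.88 in the 6 animal pools. Scn3b, a beta subunit that binds the alpha subunit without a covalent bond, ran the other way with 696.2, 718.9 and 741.7 in the neocortex and 1358, 1648 and 2002 in the hippocampal formation. Its neocortical pools were tightly grouped and none reached the hippocampal range. The difference was 1.19 log2 units (SE 0.0611, limma adjusted p = 7.4e-05), a 2.28-fold higher level, and its second probe set gave 1.23 (limma adjusted p = 0.000113).

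The other sodium channel genes were not called. Scn2a, the main alpha subunit of excitatory axons, measured 517.0, 570.2 and 623.3 in the neocortex and 467.3, 518.7 and 597.3 in the hippocampal formation, a difference of -0.13 log2 units (95% interval -0.28 to 0.016). Scn3a, an alpha subunit highest before birth, differed by -0.25 log2 units (limma adjusted p = 0.0619). Both passed with the set as a block, at adjusted p = 0.0167 and 0.00618. Scn8a, the alpha subunit of nodes of Ranvier, was a dim probe set at 22.3, 29.8 and 33.0 in the neocortex and 24.0, 35.2 and 49.2 in the hippocampal formation. Its difference of 0.28 log2 units (95% interval -0.13 to 0.70) was 0.61 in set 1 and -0.036 in set 2. Scn2b is a beta subunit linked to the alpha subunit by a disulfide bond. It was level at 638.9, 709.1 and 781.3 in the neocortex and 627.8, 745.6 and 857.7 in the hippocampal formation. Its difference was 0.046 log2 units (95% interval -0.069 to 0.16).

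Both measured HCN genes were lower in the hippocampal formation, by small margins. Hcn2, whose channel opens slowly and responds strongly to cyclic AMP, measured 71.4, 98.4 and 121.1 in the neocortex and 68.9, 75.2 and 93.3 in the hippocampal formation. The ranges overlapped, 5 of 6 animal pools were lower, and the difference was -0.33 log2 units (SE 0.0874, limma adjusted p = 0.0394). Hcn3 measured 24.0, 25.8 and 30.4 in the neocortex and 14.1, 20.0 and 23.0 in the hippocampal formation. All hippocampal pools were lower, at -0.46 log2 units (SE 0.126, limma adjusted p = 0.0420), but 3 of them lay under the filter level of 19.7, so the size is not settled. Leaving out an animal pool ended the call of Hcn2 in 5 of 6 cases, at a limma adjusted p of up to 0.145. The call of Hcn3 was lost in all 6, at up to 0.184. Only 1 partner gene of HCN channels was measured, Pex5l, which encodes the trafficking protein TRIP8b, and it differed by 0.020 log2 units.

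Channel partners differed between structures as well. Of 9 measured calcium channel partners 2 were higher and 3 lower in the hippocampal formation, against 9.4% and 10.5% of all probe sets. Rem2, a small GTPase that inhibits calcium channels through the beta subunit, was higher by 1.69 log2 units (SE 0.170, limma adjusted p = 0.000833), and Rimbp2, a presynaptic scaffold, by 0.32. Stac2, an adaptor of L-type channels, differed by -1.41 log2 units (SE 0.143, limma adjusted p = 0.000850), Cabp1, a calcium sensor that tunes channel inactivation, by -0.97, and the active zone scaffold Rims1 by -0.50. Of 13 measured sodium channel partners 3 were higher and 1 lower. Fgf13 and Fgf12, intracellular factors that bind the sodium channel tail, went in opposite directions at 0.56 and -0.41 log2 units, while the adhesion molecules Cntn1 and Nrcam were higher by 0.48 and 0.20.

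No change between sleep states passed the test. In each of the 6 comparisons of states within a structure, 0 of 23 channel genes had a limma adjusted p under 0.05, as did 0% of the 18625 probe sets. At an unadjusted p under 0.05 the channel count was also 0 in all 6, against 1.11%, 1.12% and 0.907% of all probe sets in the neocortex (deprived minus control, recovery minus control, recovery minus deprived) and 1.1%, 1.51% and 1.62% in the hippocampal formation. With the set as a block the count of channel genes at an adjusted p under 0.05 was still 0, against 0.0107%, 0% and 0.00537% of all probe sets in the neocortex and 0% in the hippocampal formation. At an unadjusted p in that fit it was 2, 0 and 0 in the neocortex and 4, 4 and 2 in the hippocampal formation, in the same order. The shares over all probe sets were 5.74%, 5.79% and 4.56%, and 5.94%, 7.32% and 7.16%. Median changes of the 23 genes lay between -0.042 and 0.041 log2 units, and those of all probe sets between -0.0061 and 0.0087. The deprived and recovery comparisons of a structure share control pools, and their values are given side by side. With n = 2 pools per group, the 95% interval of a channel gene's change reached a median of 0.41 log2 units to each side. In the fit without a block, the p-values rest on the spread between pools of 6 rats, together with array noise and differences between the sets. They do not measure the spread between single rats. Pools of the 2 structures from the same rats were treated as independent.

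**Figure D3:**
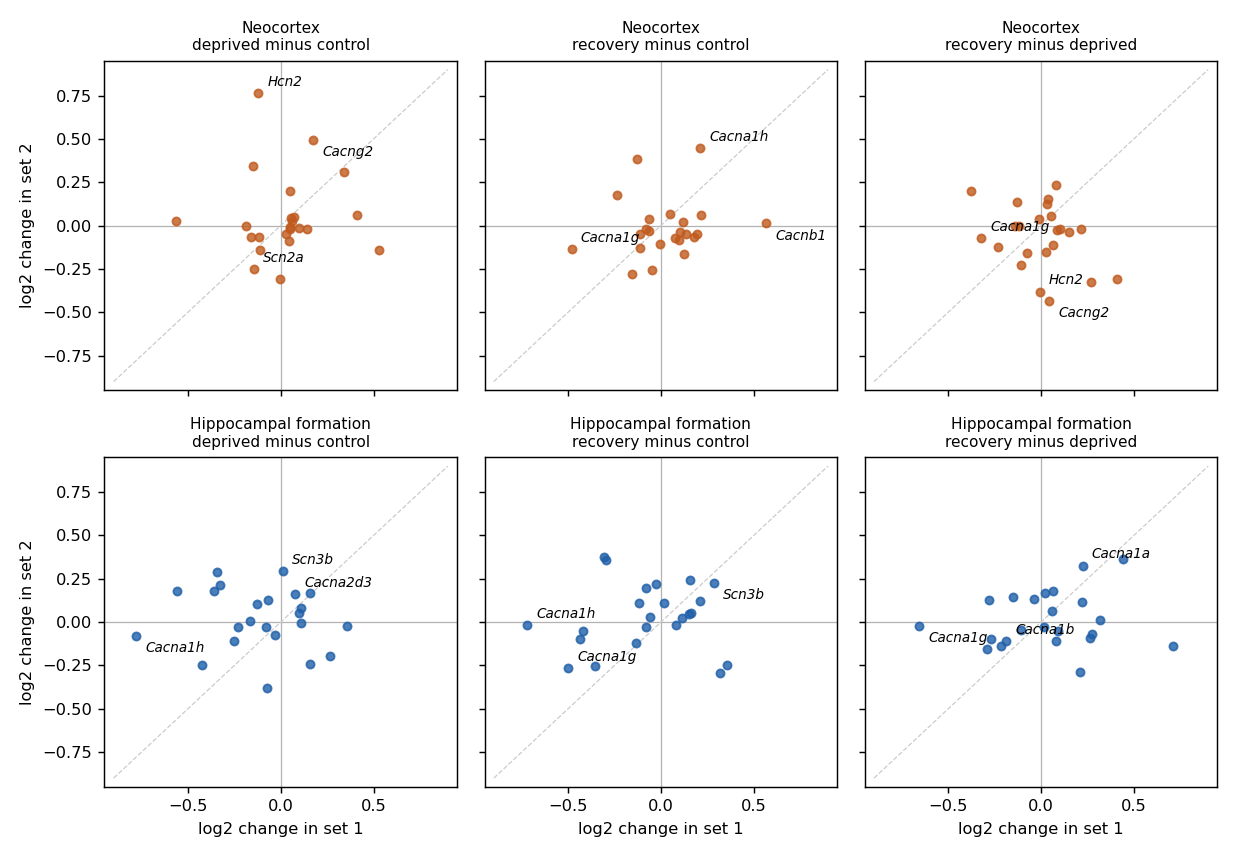
Change of the 23 measured channel genes between sleep states in the 2 sets of rats, with set 1 on the horizontal and set 2 on the vertical axis, in log2 units. Each point is a gene, the dashed line marks equal changes, and the 3 genes with the smallest p in each comparison are named. The largest change in a set was -0.78, that of Cacna1h in the deprived hippocampal formation of set 1.

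In the neocortex, groups of pools failed to overlap for 4 genes with higher and 2 with lower deprived pools, against 13.1% and 11.4% of all probe sets and 24.5% in either direction. Cacng2 had the smallest p. Its control pools read 176.4 and 186.3, its deprived pools 198.9 and 262.7 and its recovery pools 205.2 and 194.3. Both deprived and both recovery pools were above the controls, at 0.33 log2 units (SE 0.157, 95% interval -0.017 to 0.69) and 0.14, and the mean of its probe sets gave 0.23 and -0.0023. Cacna1h read 45.7 and 49.8 in controls, 57.9 and 61.6 after deprivation and 52.9 and 67.8 in recovery. Its changes were 0.32 (95% interval -0.19 to 0.84) and 0.33 log2 units (95% interval -0.19 to 0.85). Hcn2 read 107.3 and 71.4 in controls, 98.7 and 121.1 after deprivation and 98.1 and 93.0 in recovery. Its change on deprivation of 0.32 log2 units came from set 2, at 0.76, with -0.12 in set 1. Scn2a read 623.3 and 615.8 in controls, 564.0 and 517.0 after deprivation and 576.4 and 563.6 in recovery, a change of -0.20 and then -0.12 log2 units. Cacna1b read 218.0 and 214.1, then 202.1 and 194.4, then 211.0 and 179.6, with changes of -0.12 and -0.15.

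For recovery against control in the neocortex, pools did not overlap for 4 genes above and 5 below, against 11.9% and 12.1% of all probe sets and 24% in either direction. Cacnb1 read 65.2 and 80.1 in controls and 96.7 and 80.8 in recovery, 0.29 log2 units (SE 0.181), and averaging its probe sets gave -0.039. Cacna1g read 53.4 and 40.6 in controls and 38.3 and 36.9 in recovery, -0.31 log2 units (SE 0.212). From deprivation to recovery 4 genes had lower pools without overlap and none higher, against 12.5% and 10.9% of all probe sets and 23.4% in either direction. These were Hcn2, Cacna1g, Cacng8 and Cacnb3. The smallest p belonged to Cacng2 at -0.20 log2 units, followed by Hcn2 at -0.19, Cacna1g at -0.20, Scn1a at 0.16 and Cacna2d3 at -0.062. The change of Cacng2 was 0.045 in set 1 and -0.44 in set 2, and it was 0.0057 without the deprived pool of set 2. That of Cacna2d3 was 0.061 without the recovery pool of set 2.

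In the hippocampal formation, deprived and control pools did not overlap for 2 genes above and 2 below, against 10% and 9.33% of all probe sets and 19.3% in either direction. Cacna1h had the smallest p. Its control pools read 133.4 and 121.6, its deprived pools 77.7 and 115.0 and its recovery pools 81.0 and 120.0. Both later states were below both controls, by -0.43 (95% interval -0.95 to 0.090) and -0.37 log2 units (95% interval -0.89 to 0.15). Averaged with the gene's other, dim probe set these changes turned to 0.20 and 0.059. Nearly all of this was set 1, at -0.78 and -0.72, with -0.081 and -0.019 in set 2. The 2 arrays of the set 1 control pool read 101.9 and 174.7. Scn3b read 1642 and 1358 in controls, 1654 and 1663 after deprivation and 2002 and 1587 in recovery. Its changes were 0.15 (SE 0.127) and 0.26 log2 units (95% interval -0.028 to 0.54). Cacna2d3 changed by 0.12 on deprivation, Scn2b by 0.16 and Cacnb3 by -0.23 log2 units, none of them with an unadjusted p under 0.05 in the fit without a block. With the set as a block, Scn2b and Cacnb3 were among the 4 genes with an unadjusted p under 0.05, beside Cacna1h and Cacnb4. The mean of its probe sets turned the change of Scn2b to -0.082, and leaving out 1 pool moved that of Cacnb3 between -0.62 and 0.16, the latter without the deprived pool of set 2.

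Recovery and control pools of the hippocampal formation did not overlap for 1 gene above and 5 below, against 10% and 9.87% of all probe sets and 19.9% in either direction. Cacna1g read 35.2 and 38.0 in controls, 39.3 and 32.1 after deprivation and 24.9 and 31.6 in recovery, the lowest of the 3 states. Its change was -0.38 log2 units against control (95% interval -0.86 to 0.092) and -0.34 against deprivation (95% interval -0.81 to 0.13). Hcn2 read 93.3 and 75.1 in controls, 83.1 and 75.3 after deprivation and 68.9 and 70.3 in recovery, -0.27 log2 units against control. Cacnb2 read 245.7 and 197.1, then 234.6 and 215.3, then 273.4 and 233.3, with 0.20 log2 units from control and 0.17 from deprivation to recovery. With the set as a block, the 4 genes with an unadjusted p under 0.05 against control were Scn3b, Cacnb3, Cacnb2 and Cacna1h. Cacnb3 changed by -0.30 log2 units, with -0.35 in set 1 and -0.26 in set 2, and was not called (limma adjusted p = 0.548 with the block). From deprivation to recovery 4 genes had lower pools without overlap and none higher, against 11.4% and 11.8% of all probe sets and 23.2% in either direction: Cacna1g, Cacna1b, Cacnb1 and Hcn2. Cacna1a changed by 0.28, Cacna1b by -0.15 and Cacnb1 by -0.22 log2 units between these states.

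Partner genes were not called between sleep states either. Of the 9 calcium, 13 sodium and 1 HCN channel partners, 0 passed in the 6 comparisons. At an unadjusted p under 0.05 there was 1 over all 6 comparisons, against 0.907% to 1.62% of all probe sets in each. It was Fgf14, an intracellular factor of sodium channels at the axon initial segment. Fgf14 changed by 0.38 log2 units in the hippocampal formation on recovery (SE 0.155). Its change was 0.36 in set 1 and 0.41 in set 2. Pex5l changed by 0.31 log2 units in the neocortex on deprivation. For each of the 14 marker lists, the summed signal of each of 3 states was set against both other states in each of 2 structures. It lay apart for red cell genes in both structures, and for GABA interneuron and endothelial genes in the hippocampal formation. All other sums overlapped, and the separations of these few pools were not tested. The sum of 3 red cell genes was 816 and 1054 in the recovery neocortex against 1591 to 2206 in the other neocortical pools, and 985 and 991 against 1156 to 2922 in the hippocampal formation. The GABA interneuron sum was 3770 and 3777 in control hippocampal pools against 3437 to 3715, and the endothelial sum 545 and 522 in recovery pools against 547 to 564. No gene of these 3 lists was called between states, and their part in the channel values was not tested.

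Whether sleep state acted differently in the 2 structures was tested on the same within-pool differences. In each of the 3 tests 0 of 23 channel genes and 0% of all probe sets were called by limma, and 1 of 23 had an unadjusted p under 0.05 in each, against 1.14%, 1.3% and 1.6%. For deprivation and for recovery against control this was Cacna1h. The hippocampal minus neocortical difference in its change was -0.75 log2 units on deprivation (SE 0.229, 95% interval -1.29 to -0.22) and -0.70 on recovery (95% interval -1.24 to -0.16). Averaged with the dim probe set of Cacna1h, the value on deprivation turned to 0.048 and that on recovery was -0.61. For recovery against deprivation it was Cacnb4, at 0.57 log2 units (SE 0.215, 95% interval 0.064 to 1.08). Cacnb4 read 34.7 and 57.8 in the control, 25.9 and 48.6 in the deprived and 35.1 and 62.5 in the recovery hippocampal formation. In the neocortex it read 57.6 and 84.6, 59.5 and 97.0, and 55.2 and 82.7. The deprived pools of each set were the lowest in the hippocampal formation and the highest in the neocortex.

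**Figure D4:**
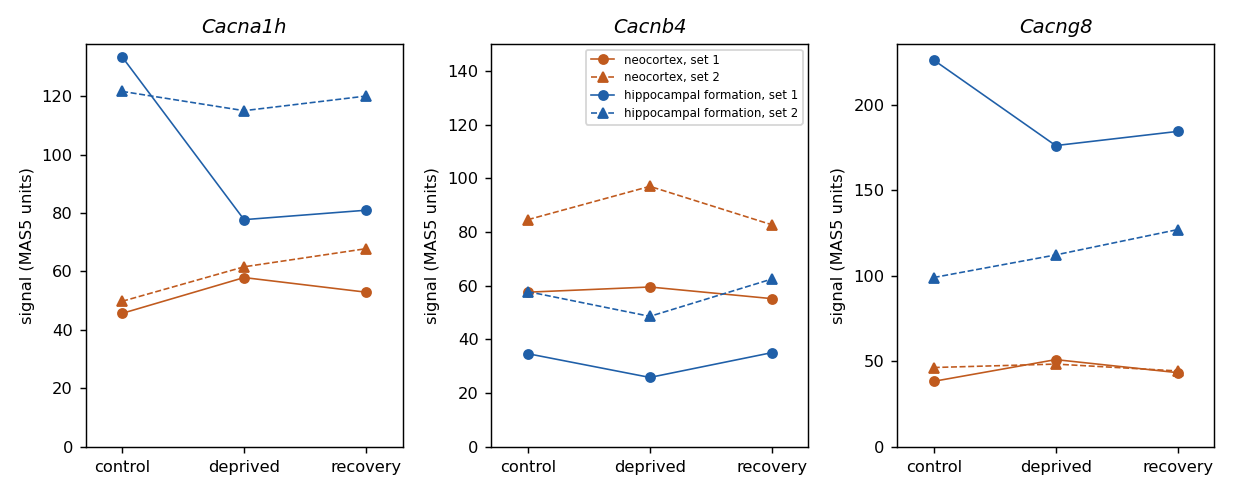
Signal of Cacna1h, Cacnb4 and Cacng8 in each pool by sleep state, on a linear axis from 0, with lines joining the pools of a structure and set. Cacna1h in set 1 runs from 133.4 in control to 77.7 in deprived hippocampal formation while set 2 stays between 115.0 and 121.6. Cacng8 in the hippocampal formation is higher in set 1, at 176.1 to 226.1, than in set 2, at 99.0 to 127.0.

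Several of these genes differed between the sets of rats. Rats and arrays cannot be told apart here, since a set 1 pool had 2 arrays and a set 2 pool 1. In 8 of 23 genes (34.8%) set 2 differed from set 1 in the same direction in all 6 groups, against 23.6% of all probe sets. For 3 of 23 (13.0%) the mean difference exceeded 0.5 log2 units, against 6.17%. Cacna2d1 was higher in set 2 by 1.25 log2 units on average, 2.37-fold, and by 0.99 to 1.69 over the 6 groups. Cacnb4 was higher by 0.72 log2 units, with a range of 0.55 to 0.91. Scn3a, in contrast, differed by -0.57 log2 units, with a range of -0.80 to -0.33. In neocortex it read 180.7, 186.8 and 207.0 in set 1 and 122.6, 121.8 and 118.5 in set 2. Other genes differed by set in the hippocampal formation, with small or mixed differences in the neocortex. Cacng8 differed by -1.19, -0.65 and -0.54 log2 units in the 3 hippocampal groups and by -0.076 to 0.28 in the neocortex. In the hippocampal groups Scn8a differed by -1.03, -0.50 and -0.35, and Cacnb3 by -0.48, -0.79 and -0.38.

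Marker lists also separated the sets, and their part in these differences was not tested. The summed signals of the sets did not overlap for 10 of 14 lists in the neocortex, 4 in the hippocampal formation and 3 in both, which were the oligodendrocyte, pan-neuronal and neocortical neuron lists. That of 7 oligodendrocyte genes was 11932 to 12259 in set 1 and 10130 to 10790 in set 2 in the neocortex, and 12983 to 15522 and 10834 to 12007 in the hippocampal formation. Ttr was the brightest of 4 choroid plexus genes in every pool. Their summed signal was 1604 to 2215 in set 1 and 172 to 792 in set 2 in the neocortex. In the hippocampal formation it was 1213 to 4574 and 394 to 1314. The summed signal of 9 neocortical neuron genes was lower in set 1 of the hippocampal formation, as given above. The 3′ to 5′ signal ratios that serve as a measure of RNA integrity did not move with the set in 1 direction. That of actin was 2.69 to 3.18 in set 1 and 2.35 to 2.83 in set 2 in the neocortex, and 2.33 to 2.47 and 2.39 to 2.52 in the hippocampal formation, overlapping in both. That of Gapdh was 1.05 to 1.08 and 1.12 to 1.17 in the neocortex, without overlap, and 1.09 to 1.17 and 1.14 to 1.15 in the hippocampal formation.

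**Figure D5:**
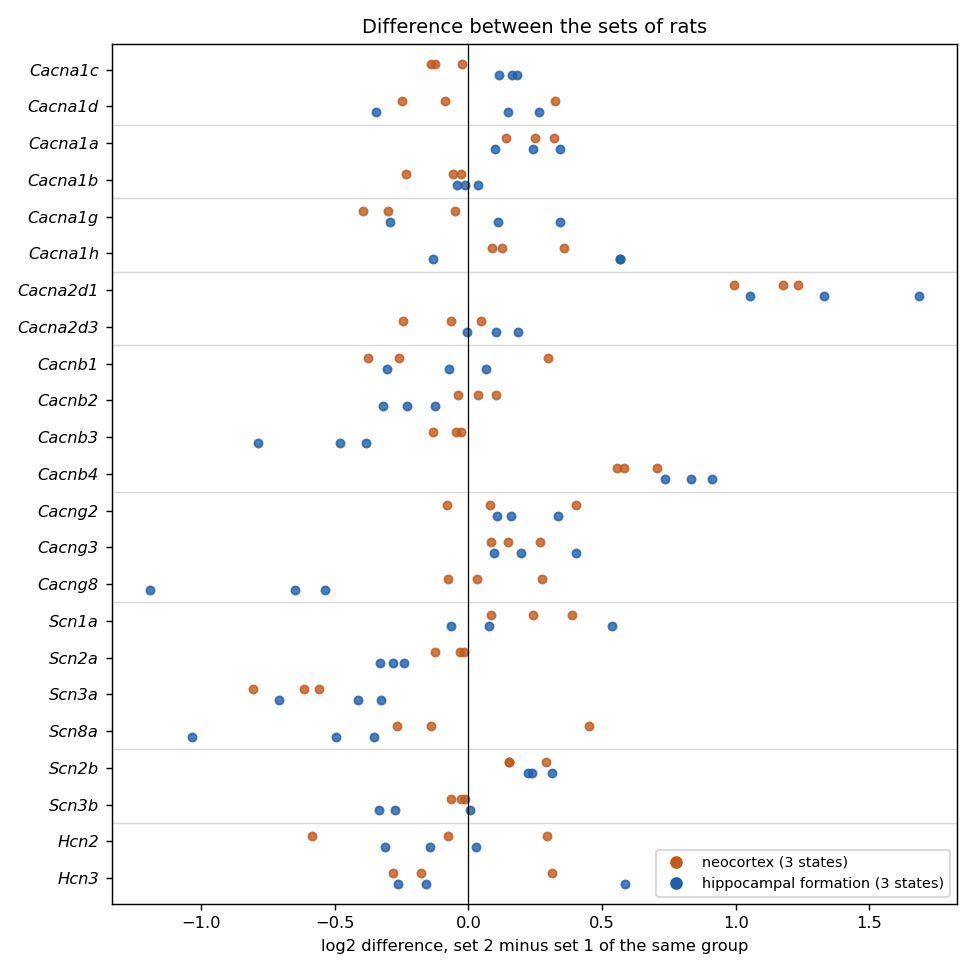
Log2 difference between set 2 and set 1 for the 23 measured channel genes, with 1 point for each of the 3 states in each structure. Cacna2d1 and Cacnb4 lie right of 0 and Scn3a left of 0 in all 6 groups, while Cacng8 and Cacnb3 lie far left only in the hippocampal groups.

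The 15 dim genes had mean log2 signals of 0.11 to 4.25, under the filter level, so no difference is given for them. They were the skeletal muscle and retinal pore genes Cacna1s and Cacna1f, the R-type gene Cacna1e and the T-type gene Cacna1i. They also included the gamma subunits Cacng1, Cacng4, Cacng5, Cacng6 and Cacng7, the muscle sodium channel Scn4a, the peripheral and glial sodium channels Scn7a, Scn9a, Scn10a and Scn11a, and Hcn4. The brightest of these, Cacna1i, ranged from 12.0 to 29.8 over the pools and Cacna1e from 1.52 to 17.6. Hcn4 did not pass 1.64.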

How the data were processed

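Arrays were hybridised with RNA pooled from 6 rats of a set. Values were deposited as linear intensities for each probe set, computed by the authors with MAS5 per the submitters' processing notes, and the scaling target was not given in the sources used here. Signals were raised to a floor of 1 and log2-transformed, arrays of 1 pool were averaged, and 57 control probe sets and the dimmest 40% of the others were left out. Folds and differences are on this log2 scale. Between states, limma 3.58.1 (lmFit, eBayes with trend, R 4.3.3) was fitted to all 12 pools with a mean for each of 6 groups. Between structures and for interactions it was fitted to the 6 within-pool differences. P-values were adjusted by Benjamini-Hochberg over 18625 probe sets, and the script was tested on simulated data.

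The members, gene lists and tests were chosen with earlier results of these data known. Statistics are given for called genes, or otherwise for the 5 smallest p, and pool values for members of every subfamily. Promoters were from RefSeq (GRCr8). Figures were drawn with matplotlib 3.10.9 in Python 3.11.15. Replicate numbers stand for the sets of rats, and the labels state no shared litter or day for equal numbers. Pools with equal numbers deviated together, with correlations of 0.54 to 0.68 inside a structure and 0.18 to 0.39 across structures, so the set served as a replicate block in an alternative fit. Other alternatives were quantile normalization, log2(signal + 16), no filter, the mean of a gene's probe sets, all 18 arrays with the pool as a random block, and leaving out each pool. Fits without the set 2 hippocampal pools and within 1 set were added after seeing the data. Recovery timing was taken from the sample labels, and another reading of the protocol text, with the 6 h following all 78 h, is possible.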

Additional observations from a re-analysis of the deposited data

Results flagged for a closer look

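Results were picked out here where a gene changed in one direction in both neocortical pools and in the other direction in both hippocampal pools. The interaction test of limma called 0 of these differences at an adjusted p under 0.05. The pattern was found for 7 of 23 genes on deprivation, 5 on recovery against control and 4 on recovery against deprivation, and for 10.5%, 10.2% and 13.7% of all probe sets. The values below are the hippocampal minus the neocortical change in log2 units, with the standard error of the first of each group.

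On deprivation, Cacna1h differed by -0.75 (SE 0.229, unadjusted p under 0.05), with 0.34 and 0.31 in the neocortical pools of sets 1 and 2 and -0.78 and -0.081 in the hippocampal pools. The mean of the gene's probe sets turned this to 0.048. Cacnb4 differed by -0.46, Cacng2 by -0.39, Cacnb3 by -0.29 and Cacna1c by -0.099. Scn2a, lower in both neocortical and higher in both hippocampal deprived pools, differed by 0.27 (SE 0.155), and Cacna1b by 0.22.

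On recovery against control, Cacna1h differed by -0.70 (SE 0.229, unadjusted p under 0.05) and Cacnb1 by -0.53. The mean of probe sets turned the value of Cacnb1 to 0.013. Cacnb2 differed by 0.28 (SE 0.186), Scn2a by 0.19 and Cacnb4 by 0.11.

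On recovery against deprivation, Cacnb4 differed by 0.57 (SE 0.215, unadjusted p under 0.05), with -0.11 and -0.23 in the neocortex and 0.44 and 0.36 in the hippocampal formation. Cacng8 differed by 0.30 (SE 0.474), Cacnb1 by -0.32 and Scn2b by -0.23, and the mean of probe sets turned the latter 2 to 0.026 and 0.22.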

How the results depend on the processing

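In all alternatives run, 0 of the channel genes were called in the 6 sleep comparisons and the 3 interaction tests. Between structures, the replicate block called 17 of 23 genes (8006 probe sets in all, against 3700) and kept all 13 of the main fit. Quantile normalization called 11 of 23 and log2(signal + 16) 13 of 23, with 19.6% and 20.6% of all probe sets. The mean of probe sets called 11 of 22 genes, with 19.1% of all that were tested. Without the filter 9 of 38 were called, 5 of them lower, with 10.1% of all probe sets against 19.9% in the main fit. Leaving out an animal pool gave 7 to 11 called, 3 to 7 of them lower, with a median from -0.19 to -0.12 and 1632 to 4516 probe sets called in all. The fewest calls came without set 1 of the deprived or of the recovery rats. Scn3b, Cacng8, Cacna1h, Cacnb2, Scn1a, Cacnb4 and Cacng3 were called in every fit that left out an animal pool, with adjusted p of up to 0.0378. With the mean of probe sets, however, Cacna1h and Cacng2 lost the call. Within 1 set, 14 genes were called in set 1 (8446 probe sets) and 12 in set 2 (2745), with a median of -0.20 in set 2.

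The mean of a gene's probe sets turned several signs, and the cause was not tested. It gave -0.039 for Cacnb1 and -0.0023 for Cacng2 (neocortex, recovery minus control), 0.20 for Cacna1h and -0.082 for Scn2b (hippocampal formation, deprived minus control) and 0.059 for Cacna1h (recovery minus control). Between structures it gave 0.024 for Cacnb1. The interaction values became 0.048 for Cacna1h on deprivation, 0.013 for Cacnb1 on recovery against control, and 0.22 for Scn2b and 0.026 for Cacnb1 on recovery against deprivation. The member median moved to -0.078 for recovery minus deprived in the neocortex, and under quantile normalization to 0.024 for the interaction of recovery against deprivation. Without the hippocampal set 2 pools it was -0.057 for recovery minus control. Between structures, set 1 alone gave -0.074 for Cacna1c and 0.078 for Cacnb3, and set 2 alone -0.036 for Scn8a.

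Leaving out 1 pool turned signs of Cacng2 (-0.40 to 0.0057) and Cacna2d3 (-0.18 to 0.061) in neocortical recovery minus deprived, of Cacnb3 (-0.62 to 0.16) in hippocampal deprived minus control, and of Cacnb1 (-0.13 to 0.070) between structures. Medians then ran from -0.080 to 0.050 for neocortical recovery minus control, from -0.042 to 0.023 for hippocampal deprived minus control and from -0.073 to 0.033 for hippocampal recovery minus control. For the interactions they ran from -0.039 to 0.053 on recovery against control and from -0.0058 to 0.11 against deprivation. With the replicate block as a term, 2 of all probe sets were called in neocortical deprived minus control, 1 in recovery minus deprived and 2 in the interaction of these states. Dim probe sets such as Hcn3 and Scn8a, near the filter level, limit what can be measured.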
